A study of Mus musculus with 2 samples.

Results

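Thymocyte homing and egress genes encode the receptors and adhesion molecules that bring progenitors into the thymus, move immature T cells through it and release mature ones into the blood. The genes examined were 9, S1pr1, Klf2, Cd69, Ccr7, Ccr9, Cxcr4, Itga4, Itgb7 and Cd44, of 21887 protein-coding mouse genes tested. They were chosen by name, with earlier results of these data known. For each gene, every Myc-Tag interval that shared 1 bp or more with the gene body, or with the 10 kb flanking each end, was collected. For a gene with no interval, the distance to the nearest summit was measured. The data are ChIP-seq intervals, each with the position and height of its summit, from 1 Myc-Tag ChIP library and 1 input library of a Lck-Dlx5 T-cell lymphoma. In this model, the Lck promoter drives Myc-Tag-labeled Dlx5, a homeobox transcription factor that thymocytes do not normally express, so the antibody recovers the product of the transgene. The labels describe both libraries as primary tumor, with the strain C57BL/6 for the Myc-Tag ChIP and C57BL/7 for the input, whereas the methods name 1 lymphoma cell line and an IgG control. No age is given, no library without the transgene is included, and there were no replicates, so that no value below has a replicate error.

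Sphingosine-1-phosphate is abundant in blood and lymph and scarce in the thymus, and mature thymocytes follow this gradient out of the organ through its receptor S1pr1. Klf2 is a zinc finger factor that switches on S1pr1 and other trafficking genes as thymocytes mature, while Cd69 is an activation marker that binds S1pr1 and takes it off the cell surface. Cxcr4, the receptor of Cxcl12, Ccr9, the receptor of Ccl25, and Ccr7, the receptor of Ccl19 and Ccl21, guide cells between the cortex, the medulla and the vessels. Itga4 and Itgb7 encode the chains of the α4β7 integrin, which binds Madcam1 on gut vessels, and Cd44 is a hyaluronan receptor whose loss from the surface marks the passage from early to later double-negative thymocytes.

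The Myc-Tag library held 3477 intervals with a median summit height of 16, and 28 intervals were called in the input. Heights are whole numbers deposited without a stated normalization and ranged from 9 to 301. Intervals do not measure expression, so the lymphoma's identity could not be checked from them. Among T-cell markers, 4 of 7 had an interval by the same rule, beside 19.0% of all protein-coding genes. These were Lck, Cd3d, Cd3g and Cd4. Cd3d and Cd3g were counted through the same 2 intervals. At Cd4 the summit was 7.46 kb outside the gene and 485 bp from the start of P3h3. The Lck summit was 220 bp upstream of a tabulated Lck start. An Lck promoter also drives the transgene, and whether its sequence contributed to this interval was not tested. Of the B-cell markers, 1 of 2 had one, Cd79a, whose intervals lay outside the gene and were also counted at Rps19 or Arhgef1, and 0 of 3 epithelial markers did.

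Myc-Tag intervals were called at 2 of the 9 homing and egress genes, Cxcr4 and Cd44. This is 22.2% of the genes, beside 19.0% of all protein-coding genes (95% Wilson interval 18.5 to 19.6%, which covers counting error only), so that the count is near the background. The other 7 genes, S1pr1, Klf2, Cd69, Ccr7, Ccr9, Itga4 and Itgb7, had no interval in the body or within 10 kb, and binding there was not detectable at the calling threshold. Each of the 2 genes had 1 interval, with its summit inside the gene, and neither interval was called in the input. A summit lay inside the body of 9.83% of all protein-coding genes. Over the 9 genes, the median distance from the gene body to the nearest summit was 153 kb, beside 134 kb over all protein-coding genes.

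**Figure D1:**
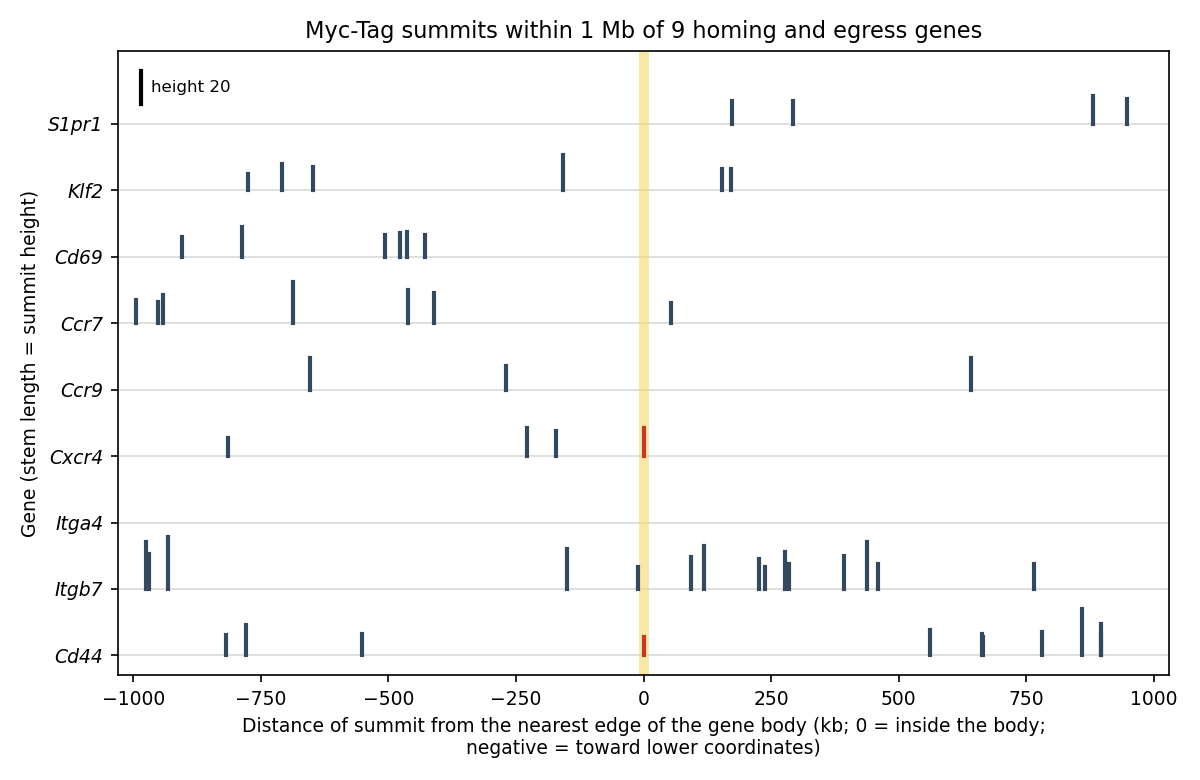
Every Myc-Tag summit within 1 Mb of each of the 9 genes, placed by its distance in kb from the nearest edge of the gene body, with a stem as long as the summit height (deposited score; the black bar is a height of 20). The shaded band marks 10 kb on either side; red stems lie inside the gene body, at Cxcr4 and Cd44, the row of Itga4 is empty, and that of Itgb7 has 15 summits.

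Cxcr4, which holds immature cells in niches rich in Cxcl12, spans 128588199 to 128592299 of chromosome 1 (mm10) on the minus strand. Its interval ran from 128590734 to 128591855 and was 1122 bp wide, and 14.3% of all Myc-Tag intervals were wider. The summit, at 128591456, had a height of 17 and lay 843 bp downstream of the transcription start. Taller summits numbered 1179 of 3477 (33.9%), 239 had the same height and 2059 were lower. Within chromosome 1, 26.3% of 213 summits were taller. A position within 1 kb downstream of a start was common in this library, since it held for 1092 of the 3377 summits on chromosomes with tabulated starts (32.3%), with a median height of 15. Cxcr4 is a short gene, and a summit lay inside 5.39% of the protein-coding genes with a body under 10 kb. No other gene of the RefSeq table overlapped the Cxcr4 interval, and no other protein-coding gene was counted with it. The nearest other summit was 174 kb away.

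Cd44 spans 102811141 to 102901669 of chromosome 2, also on the minus strand. Its interval, from 102886282 to 102887160, was 879 bp wide. The summit at 102886630 had a height of 11, close to the lowest height called, which was 9, and 3145 of 3477 summits (90.5%) were taller, while 110 were lower. Thus the Cd44 summit was lower than that of Cxcr4, with no replicate check of the difference. Unlike at Cxcr4, the summit was 15035 bp downstream of the tabulated start, deep in the gene. Summits inside a protein-coding gene but more than 10 kb from any tabulated start made up 16.9% of the 3377 summits. Their median height was 16. Some genes have no tabulated start, so this share can include summits at a start. As Cd44 is 90.5 kb long, its window was among the wide ones, and 14.6% of the protein-coding genes with a body over 50 kb had a summit inside. The Cd44 interval overlapped no other gene of the table. It stood alone, with the nearest other summit 575 kb away. For 10.1% of all summits the nearest neighbour was farther, and the median was 76.2 kb.

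**Figure D2:**
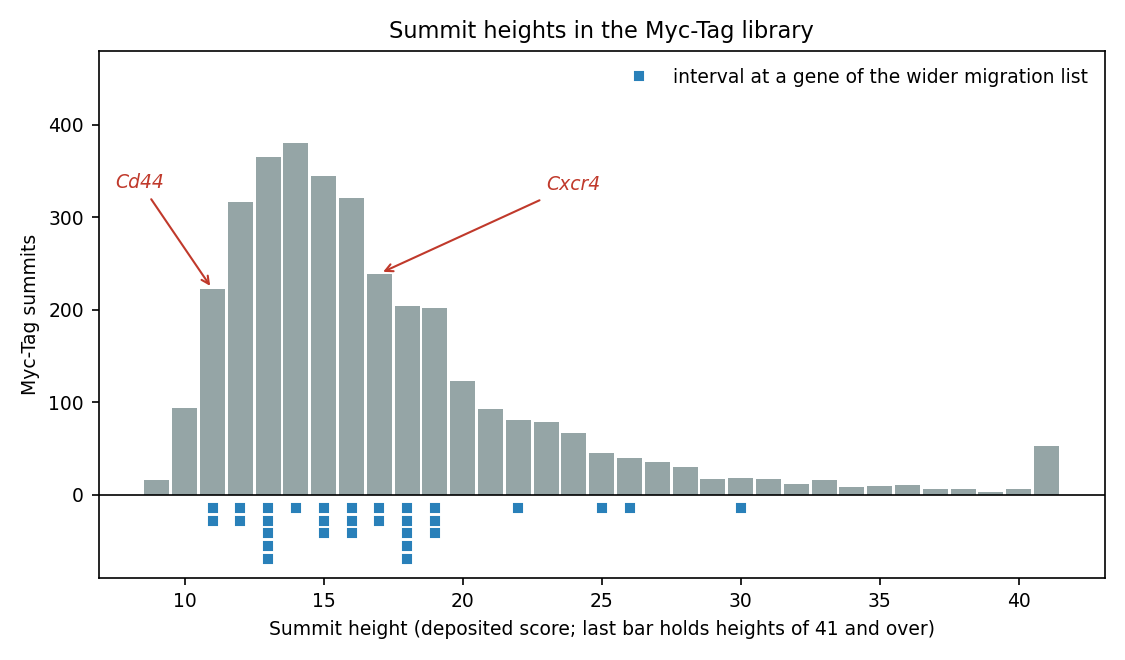
Summit heights (deposited score) of the 3477 Myc-Tag intervals on the horizontal axis and their number on the vertical axis, with the last bar holding heights of 41 and over. Arrows mark the bars that hold Cxcr4 (17) and Cd44 (11); squares below zero mark the 30 intervals at genes of the wider migration list, from 11 to 30.

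The region before the start is shown for both genes because their summits lay on the other side of it, inside the genes. The sequences, credited to RefSeq on GRCm38.p6, are chr1:128592300-128592549 for Cxcr4 and chr2:102901670-102901915 for Cd44, both minus strand, and capitals mark TAAT on either strand, the core of the homeodomain site.
Cxcr4: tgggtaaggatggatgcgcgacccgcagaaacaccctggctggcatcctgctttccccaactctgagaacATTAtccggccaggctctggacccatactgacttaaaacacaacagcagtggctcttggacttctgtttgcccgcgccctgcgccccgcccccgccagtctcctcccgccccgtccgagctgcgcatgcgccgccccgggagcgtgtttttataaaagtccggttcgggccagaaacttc
Cd44: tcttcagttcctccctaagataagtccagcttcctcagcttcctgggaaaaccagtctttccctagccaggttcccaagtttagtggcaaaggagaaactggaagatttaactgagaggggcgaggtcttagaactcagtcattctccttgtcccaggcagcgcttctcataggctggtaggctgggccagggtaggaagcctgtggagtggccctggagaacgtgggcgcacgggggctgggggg
The Cxcr4 window, of 250 bases before the start and 50 after it, ended 395 bp from the interval, and the Cd44 window 14456 bp from its interval. Promoter windows were tabulated for 6 of the 9 genes (Klf2, Ccr9, Cxcr4, Itga4, Itgb7 and Cd44). That of Itgb7 lay wholly inside the gene body, at an internal tabulated start. The TAATT motif, searched as TAATT and AATTA, was in 0 of the 6, beside 27.0% of all 32851 promoter windows and 14.1% of the 2383 windows that overlapped a Myc-Tag interval. The shorter TAAT was in 2 of the 6, as ATTA 180 bp before the start of Cxcr4 and as TAAT 161 bp before that of Ccr9. It was in 58.0% of all windows and in 38.0% of those that overlapped a Myc-Tag interval. TAAT is contained in TAATT, so these shares are not independent. The GC content of the 6 windows ran from 51.3% (Ccr9) to 69.3% (Klf2), and only that of Ccr9 was below the median of 52.7%. How GC content bears on these motif counts was not tested. The interval sequences themselves were not used here.

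The 3 genes of the egress step, S1pr1, Klf2 and Cd69, lay 173, 153 and 428 kb from the nearest summit. The median over all protein-coding genes was 134 kb, and 45.0% of them were farther from a summit than S1pr1 and 47.4% than Klf2. S1pr1 is on chromosome 3 from 115710433 to 115715055, and its nearest summit, of height 14, was 173 kb above it in the interval that overlapped Dph5. There were 2 summits within 500 kb of S1pr1, although 3 of the 4 other protein-coding genes in that range (Dph5, Extl2 and Slc30a7) had an interval. Klf2, on chromosome 8 from 72319062 to 72321654, lay between a summit of height 13 at 153 kb, 161 bp downstream of the start of Cherp, and one of height 21 at 158 kb, 432 bp upstream of that of Rab8a. Of the 27 other protein-coding genes within 500 kb of Klf2, 5 had an interval. Cd69, in the natural killer gene complex of chromosome 6 (129267324 to 129275375), had its nearest summit 428 kb below, with a height of 13, and 28.5% of protein-coding genes were farther from a summit. Of the 28 other protein-coding genes within 500 kb of Cd69, 2 had an interval, BC035044 and Klrb1c. The background for these neighbour counts is the 19.0% of all protein-coding genes.

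The other chemokine receptors, Ccr7 and Ccr9, also had no interval. Ccr7, on chromosome 11 from 99144199 to 99155077, had a summit of height 12 at 53.3 kb, in an interval that was counted at Smarce1. Of all summits, 81.4% were taller, and 65.9% of protein-coding genes were farther from a summit than Ccr7. Among the 46 other protein-coding genes within 500 kb of Ccr7, 5 had an interval. The 19.0% of all protein-coding genes is the background for this count and the others in this paragraph. Ccr9 spans 123767211 to 123783457 of chromosome 9, in a cluster of chemokine receptor genes. Its nearest summit, of height 14, was 269 kb away in Limd1, and 36.6% of protein-coding genes were farther from a summit. Limd1 was the 1 gene with an interval among the 15 others within 500 kb of Ccr9. Cxcr4 was the 1 member with a summit in its body and called neighbours as well, since Dars and Mcm6 had an interval among the 6 other protein-coding genes within 500 kb.

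Both integrin genes had no interval, but their surroundings differed. Itga4, on chromosome 2 from 79255426 to 79333114, lay farthest of the 9 genes from a summit, at 1309 kb, with 12.3% of all protein-coding genes farther. That summit, of height 16, was 4 bp from the start of Cwc22. None of the 5 other protein-coding genes within 500 kb of Itga4 had an interval, beside 19.0% of the protein-coding genes of chromosome 2. No summit lay within 1 Mb. Itgb7, on chromosome 15 from 102215994 to 102233405, was the gene nearest to the limit of the rule. The edge of its nearest interval was 11.4 kb from the gene, 1.43 kb beyond the 10 kb allowed. The summit, of height 13, was 256 bp downstream of the start of Zfp740, and the interval was also counted at Csad. Within 500 kb of Itgb7 there were 11 summits, and 16 of the 36 other protein-coding genes had an interval. Chromosome 15 had the highest background of the 8 chromosomes that carry the 9 genes. There, 36.7% of protein-coding genes were called, against 17.9% to 22.9% on the other 7. The paper names trisomy 15 as the recurring karyotype change of these lymphomas, and its effect on the counts was not tested. Cd44, on chromosome 2 like Itga4, had no called neighbour among the 7 other protein-coding genes within 500 kb.

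Within 500 kb of the 9 genes there were 174 other protein-coding genes in all, of which 34 (19.5%) had an interval. This is near the 19.0% of all protein-coding genes. Without the surroundings of Itgb7, 18 of 138 (13.0%) had one. All 28 input intervals are also Myc-Tag intervals, so distances from the 9 genes to them could not be smaller. The nearest was 3086 kb from Itgb7, and none was called on chromosome 8, which carries Klf2.

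**Figure D3:**
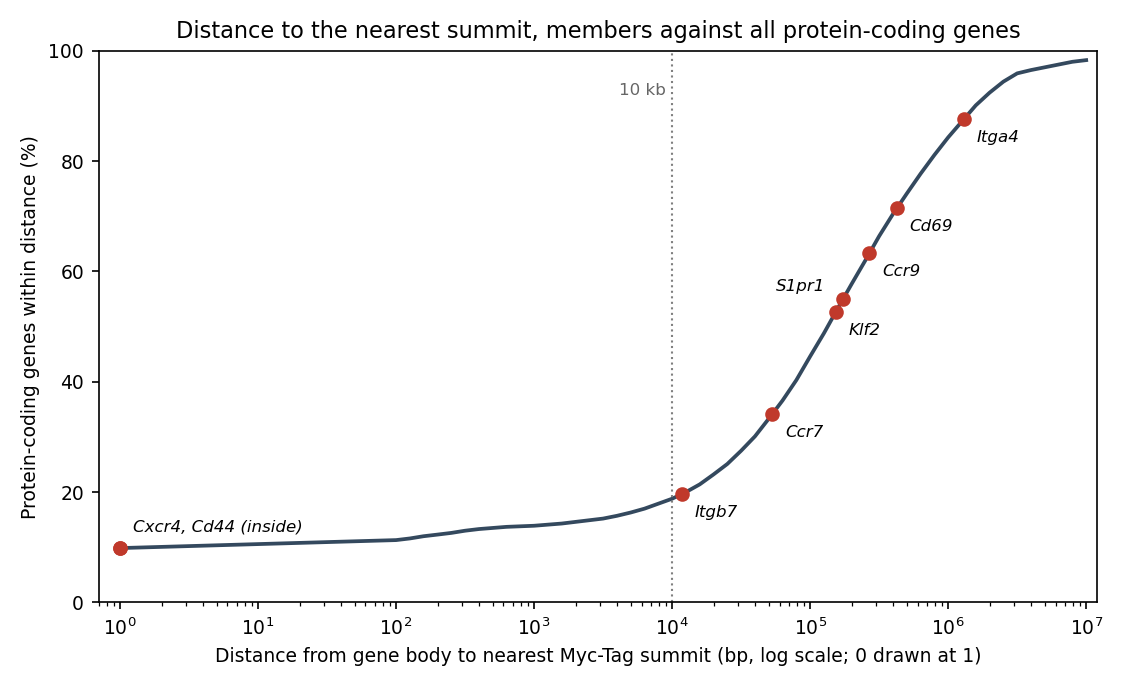
The line gives the percentage of the 21887 protein-coding genes whose body lies within a given distance (bp, log scale, 0 drawn at 1) of a Myc-Tag summit, and red points place the 9 genes on it. Cxcr4 and Cd44 sit at 0, Itgb7 lies just beyond the dotted line at 10 kb, and Itga4 is the farthest at 1309 kb.

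For the rest of the migration machinery, a list of 90 genes grouped by role was examined with the same rule, and 22 of them (24.4%) had an interval, beside 19.0% of all protein-coding genes. These 22 genes had 30 intervals, with heights from 11 to 30 and a median of 16, and 0 of them were called in the input. For 12 of the 22 genes an interval was also counted at another protein-coding gene. The count by role ranged from 0 of 7 to 4 of 8, and groups of this size were not compared with each other. The list was chosen with earlier results of these data known, so these shares are descriptions.

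Of 21 chemokine receptor genes, the 3 members included, 2 had an interval, Cxcr4 and Cxcr5. The share of all protein-coding genes, 19.0%, is the background for this count and for the others in this paragraph. Cxcr5, which draws cells to B-cell follicles, had a summit of height 11 located 1499 bp outside the gene, in an interval also counted at Bcl9l. Thus Cxcr4 was the single chemokine receptor of the list with a summit inside the gene. None of the 7 thymic and lymph node chemokines, Cxcl12, Ccl25, Ccl19 and Ccl21a among them, had an interval. Of the 5 sphingosine phosphate receptors, S1pr4 had one, of height 26, but its summit was 1.33 kb outside S1pr4 and 53 bp from the start of Ncln. In the same pathway, Sphk2, a kinase that makes sphingosine-1-phosphate, had a summit of height 30 located 30 bp upstream of its own start, and 4.17% of all summits were taller. This interval was also counted at Dbp, Rpl18 and other genes. Spns2, the transporter that releases the lipid from endothelium, was counted through a summit of height 12 located 1 bp from the start of Mybbp1a.

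Among 13 integrin subunit genes, including Itga4 and Itgb7, 3 had an interval, beside the background of 19.0% of all protein-coding genes. Itga6, a laminin receptor chain, had a summit of height 25 inside the gene that was counted at no other coding gene. Itgae, the chain that pairs with the Itgb7 product on epithelial lymphocytes, had a summit of height 18 inside the gene, 31 bp from the start of Haspin, which lies within it. At Itgal, the LFA-1 chain, the summit had a height of 13 and was 7.39 kb outside the gene. Of the 7 adhesion ligands and selectins, including Madcam1 and Vcam1, 0 had an interval, a group too small to set apart from the background.

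Upstream of Klf2, the Foxo factors switch on Klf2 and S1pr1 in resting T cells, and Foxo1 had 2 intervals that were counted at no other protein-coding gene. One summit, of height 12, was 143 bp from the Foxo1 start, and the other, of height 22, was 5.71 kb outside the gene. Foxo3 had a summit of height 16 located 1422 bp upstream of its start. Of the Klf genes, Klf10 had a summit of height 19 inside the gene, at 38300688 and so close to the higher-coordinate end of its body at 38300711. No start is tabulated for Klf10, so whether this end is its start was not assigned. Klf10 is on chromosome 15, where 36.7% of protein-coding genes had an interval. Klf13 had 2 summits inside, of heights 13 and 18. Klf3, Klf4, Klf6 and Foxo4 had none, like Klf2. In total, 4 of these 8 regulators were called, beside 19.0% of all protein-coding genes.

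The genes for the signal and cytoskeletal steps of migration were also listed with earlier results of these data known. Of these 28 genes, 11 had an interval (39.3%), beside the background of 19.0%. Some of their summits lay within 1 kb of a tabulated start, as did 24.1% (upstream) and 32.3% (downstream) of the 3377 summits on chromosomes with tabulated starts. Coro1a, an actin regulator needed for thymocyte egress, had 3 intervals of heights 17, 13 and 14. The summits of heights 17 and 13 lay inside the gene, and that of height 13 was 164 bp upstream of an internal tabulated start. Mob1a, an adaptor of the Stk4 kinase in the same step, also had 3, of heights 18, 15 and 16, of which that of height 15 was 119 bp upstream of the Mob1a start. The summits of the outer intervals were 196 bp from the start of Mthfd2 and 100 bp from that of Bola3. Tln1, which activates integrins, had a summit of height 18 located 119 bp downstream of its start and another of height 19 outside the gene. Rap1b, a small GTPase upstream of Tln1, had a summit of height 16 that was 74 bp upstream of its start, and Rap1a had intervals of heights 11 and 17. Arhgef1, which relays signals from G-protein-coupled receptors to Rhoa, had a summit of height 18 inside the gene, 26 bp upstream of an internal tabulated start. The remaining genes called were Gnai3 and Grk2 (height 15 each), Rac1 and Rassf5 (height 13 each) and Rhoh (height 19). Grk2 is a kinase that desensitizes S1pr1. Gnai2, Gna13, Dock2, Rac2, Stk4 and 12 other genes of the group had no interval.

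**Figure D4:**
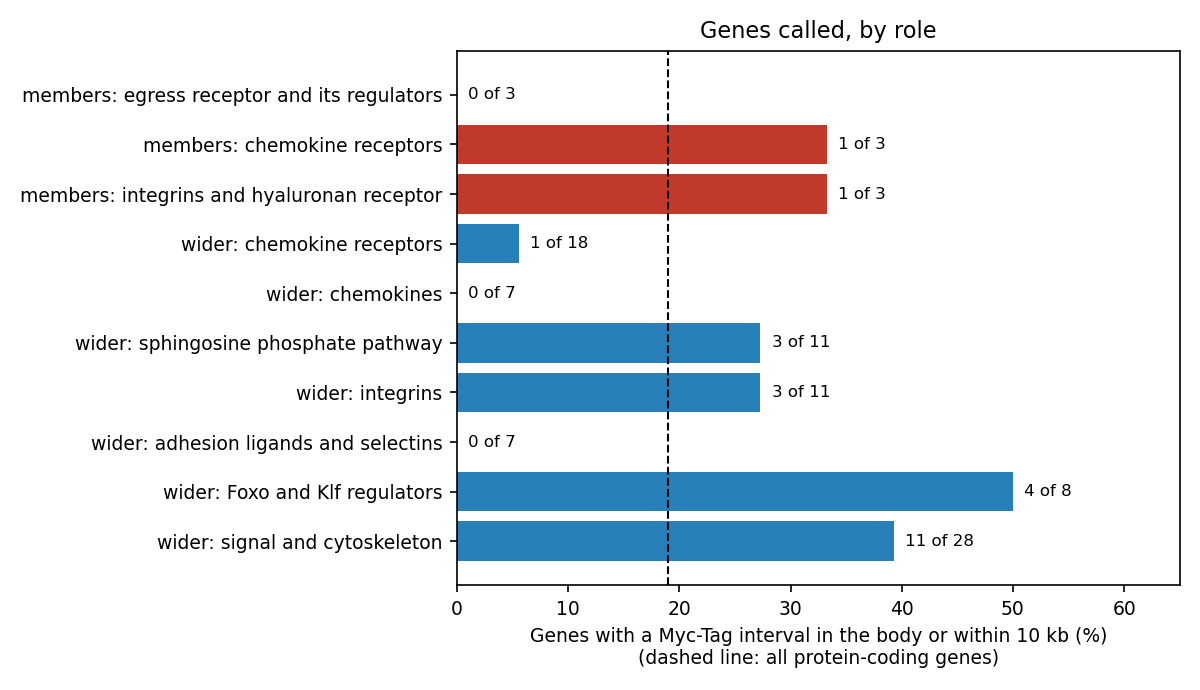
Percentage of genes with a Myc-Tag interval in the body or within 10 kb, for the 9 members (red) and the 90 genes of the wider list (blue) by role, with counts beside each bar. The dashed line is the 19.0% of all protein-coding genes; the egress receptor and its regulators have 0 of 3, and each of the other member groups 1 of 3.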

How the data were processed

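ChIP-seq and its analysis were performed by Active Motif on an Illumina GA II, with peaks called by MACS p-value. How the input intervals came to share their coordinates with Myc-Tag intervals is not given. The submitters' processing notes name BWA and the build mm9. In GRCm38 (mm10) coordinates, 58.4% of summits lay within 1 kb of a protein-coding gene end, and from 26.1% (chromosome X) to 70.7% (chromosome 8) by chromosome, so the files were read as mm10. The MACS version, threshold and control are not given in the sources used here. The authors deposited summits with a score, the peak height as a whole number without stated normalization, and intervals. Without read totals, the depth behind a height is unknown. Summits lay on multiples of 16 bp in 3329 of 3477 cases. Strand and starts came from RefSeq promoter windows, which hold none of Ccr7, S1pr1 and Cd69 and none on chromosome 18. Starts of other genes, such as Klf10 and Rac1, are also missing, so shares of summits near a start can be too low.

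Members and gene lists were chosen with earlier results of these data known, and 2 listed genes are not reported here. All 9 members were named, with the genes at their intervals or nearest summits and the genes of the wider list that had an interval. The share of all protein-coding genes with an interval has a 95% Wilson interval. No test between conditions was possible with 1 library per group. The scripts ran in Python 3.11.15 with pandas 2.3.3, numpy 2.4.6, matplotlib 3.10.9 and scipy 1.17.1, and the overlap code was tested on simulated data. Alternatives were other distances, overlaps and height thresholds, leaving out intervals called in the input, other reference sets for the height ranks and other motif letters.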

Additional observations from a re-analysis of the deposited data

How the results depend on the processing

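Of the 9 homing and egress genes, the same 2, Cxcr4 and Cd44, had an interval with the gene body alone, with 1 kb around it, with 50% of the interval required inside the window and with the input calls removed. Allowing 50 kb added Itgb7, giving 3. With summit heights at or above the median, 1 gene was left, Cxcr4, and at or above the 75th percentile, a height of 19, there were 0. The share of all protein-coding genes moved to 13.4% with the gene body alone, 14.2% with 1 kb, 33.3% with 50 kb, 10.7% at or above the median height and 6.05% at or above the 75th percentile. The count in the wider migration list moved to 37 of 90 with 50 kb and to 7 at or above the 75th percentile, and lay between 15 and 22 otherwise. Fewer or more genes follow from the construction of these settings. The share of summits taller than that of Cxcr4 was 26.3% within chromosome 1, and the cause was not tested. The TAAT letters, a choice made after seeing the data, were in 2 of the 6 promoters, and TAATTA or TAATTG in 0.

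No paired analysis was possible because both groups consist of a single library, which also means that replicates could not be left out in turn. TAATT in the member intervals was not run, because interval sequence was not used here. With depth unknown, nothing can be said of binding below the calling threshold at the 7 uncalled genes.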
